A study of Mus musculus with 17 samples.

Results

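The genes described here are 9 markers used to recognise cancer stem cells and cells that pump out drugs: Prom1, Cd24a, Abcg2, Abcb1a, Abcb1b, Abcc1, Bmi1, Aldh3a1 and Nes. They form a list of named genes, with no threshold on a measured value, and all 9 were found among the 23420 genes of the count table. RNA was sequenced from 17 libraries of mouse cells, all of which derive from C57BL/6 knock-in mice with the R172H allele of Trp53, the gene of the tumour suppressor p53. The libraries comprised 4 second-generation tumour lines (TL2), 6 first-generation tumour lines (TL1), 3 samples of mesenchymal stem cells from bone marrow (MSC), 2 clones of first-generation tumour line cells labelled as p53 knockout (KO clones) and 2 clones of such cells that kept the mutant allele (Mut clones). TL2 lines were derived from tumours that formed after TL1 cells had been injected. Cells from tumours were kept over agar with leukaemia inhibitory factor in the medium, while MSC had MSC medium, so the effect of the culture and that of tumour origin cannot be told apart. The parent line of the clones, the way the knockout was made and the age of the mice were not given in the sources used here, and 2 clones a group cannot separate the allele from differences between clones. MSC, TL1 and TL2 libraries carry a number from 1 to 3 in their labels, which is kept here in the library name with a letter added where a group holds it more than once.

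Cells with stem-like properties in tumours are commonly recognised by surface proteins such as prominin 1 and CD24, by high aldehyde dehydrogenase activity, by intermediate filaments of progenitor cells such as nestin, and by the Polycomb protein BMI1, which sustains self-renewal by repressing the Cdkn2a locus. A further sign is the expulsion of dyes and drugs by ATP-binding cassette (ABC) transporters, membrane pumps that hydrolyse ATP to export their substrates. In mice P-glycoprotein, the pump of the multidrug resistance phenotype, is encoded by a pair of neighbouring paralogues, Abcb1a and Abcb1b, where humans have a single gene.

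Library totals lay between 12215025 and 15962341 counts. Trp53 stood at 80.8 and 89.6 CPM (counts scaled to a common library total) in KO clones, against 358 and 280 CPM in Mut clones, a log2 change of -1.89 (SE 0.226, adjusted p = 0.00259 by edgeR's quasi-likelihood test); which part of the gene was deleted was not given, so this level is a check of the labels only in part. All 10 bone marrow stromal markers had counts in every group. Their summed levels were 1750 to 2770 CPM in TL2, 1650 to 2870 CPM in TL1 and 5300 to 9010 CPM in MSC. KO clones summed to 3060 to 3370 CPM, against 1500 to 1530 CPM in Mut clones. Abundant genes carried these sums: Cxcl12 averaged 4030 CPM in MSC, and Itgb1 2040 CPM in KO clones, against 823 CPM in Mut clones. By single gene, the change in KO against Mut clones was positive for 3 of the 10 and negative for 7. At an adjusted p under 0.05 by edgeR, 3 were called higher and 2 lower. In tumour lines against MSC, 5 changes were positive and 5 negative, with 0 called higher and 2 called lower. Markers of haematopoietic cells summed to at most 32 CPM (7 of 8 in the table), those of erythroid cells to at most 0.722 CPM (4 of 6) and those of endothelial cells to at most 3.44 CPM (5 of 5). Epithelial markers (6 of 6 in the table) summed to 5.11 to 309 CPM in TL2, 6.89 to 72 CPM in TL1 and 0.456 to 1.7 CPM in MSC, and to 3.51 to 3.62 CPM in KO clones, against 35.2 to 111 CPM in Mut clones. Krt18 made up most of the sum in Mut clones, while Epcam, a defining epithelial gene, had at most 0.373 CPM in any library.

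KO and Mut clones differed at 5 of the 9 genes. Cd24a, Nes and Abcg2 were higher in KO clones, by 28-fold, 10.7-fold and 6.5-fold, and Abcb1a and Abcb1b were lower, Abcb1a to no count at all. DESeq2 also called 5 members, while edgeR called 3 without Mut clone 2, 4 without each other clone in turn and 1, Abcb1a, when all 17 libraries were fitted together. The 5 calls stand beside 26.1% of all 12238 genes tested, 14.2% called higher and 12% called lower; 6 members had an unadjusted p under 0.05, as did 40.4% of all genes. Of the 8 members tested, 7 had clones that did not overlap between the genotypes, as did 69.7% of all tested genes. In the comparison of tumour lines with MSC, none of the 8 tested members passed the threshold of an adjusted p under 0.05, where 8.65% of 13262 genes did, 3.86% higher and 4.79% lower in tumour lines. There, 3 members had an unadjusted p under 0.05, a threshold that 26.4% of all genes passed, and DESeq2 called 2 of them, Abcb1b and Nes. TL2 and TL1 differed at 0 members and at 0% of the genes by edgeR; none of the 8 had an unadjusted p under 0.05 (1.85% of all genes did), and DESeq2 called no member and 3 genes. No member had libraries without overlap between the generations, as 0.136% of all genes had.

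**Figure D1:**
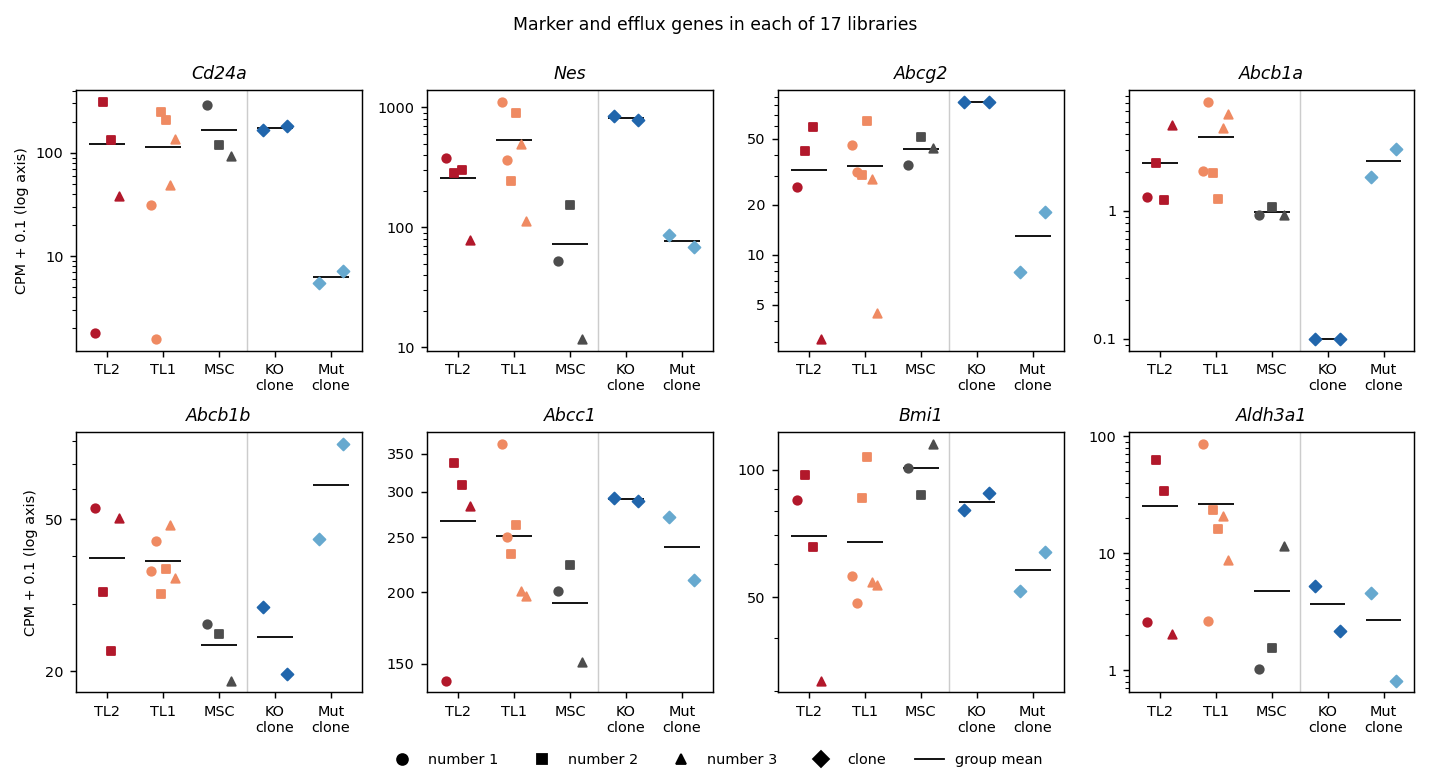
Level of each of the 8 tested genes in CPM (log axis, 0.1 added so that 0 can be drawn) in TL2, TL1 and MSC and, right of the line, in KO and Mut clones; each point is a library, its shape the number in the label, and bars are group means. Cd24a, Nes and Abcg2 lie higher in both KO clones than in both Mut clones, and Abcb1a has no count in KO clones.

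Prom1, at chr5:43993620-44102032 on the minus strand (GRCm38), encodes prominin 1 (CD133), a pentaspan glycoprotein of membrane protrusions. It had 2 counts in all, 1 in TL1 2b and 1 in MSC 1, and did not pass the filter on low counts in either fit. The limit of 3 counts that a count of 0 allows corresponds to between 0.193 and 0.251 CPM per library, an upper limit for the libraries at 0, and no comparison was made. Limits of this kind, and the counting intervals given later, cover counting error only.

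Cd24a, at chr10:43578284-43584265 on the plus strand, encodes the small glycosylphosphatidylinositol-anchored protein CD24, which is heavily glycosylated and takes part in cell adhesion. It stood at 165 and 180 CPM in KO clones, against 5.36 and 7.08 CPM in Mut clones. The genotypes did not overlap, and the means of 172 ± 10.7 and 6.22 ± 1.22 CPM (SD, n = 2 each) differed by a log2 change of 4.81 (SE 0.267, adjusted p = 0.000152, edgeR). In bulk RNA, a smaller share of cells with a transcript and less of it per cell cannot be told apart. When all 17 libraries were fitted together, with the spread of the lines entering the estimate, the change of Cd24a was 4.79 with an adjusted p of 0.136. The epithelial and stromal sums given above moved between the genotypes as well, and their part in the change was not tested.

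Among the lines Cd24a had the widest range of the members by the ratio of highest to lowest, while by coefficient of variation over the 10 tumour lines Aldh3a1 varied more (109%, against 94.9% for Cd24a). TL2 1 held 1.71 CPM, TL2 2a 310 CPM, TL2 2b 133 CPM and TL2 3 38.3 CPM. The TL1 lines spanned 1.49 to 250 CPM with a median of 92.4 CPM, and MSC 1, 2 and 3 held 287, 118 and 92.9 CPM. The highest of the 10 tumour lines was 208 times the lowest, against 3.09 times among MSC, and both lowest lines, TL1 1b and TL2 1, carry the number 1. The KO clones lay within the range of the lines, with 7 lines below them and 3 above, and so did the Mut clones, with 2 below and 8 above. Tumour lines and MSC overlapped, with means of 116 ± 110 CPM (n = 10) and 166 ± 106 CPM (n = 3), a log2 change of -0.47 (95% interval -2.92 to 1.98, adjusted p = 0.816), which turned to 0.18 without MSC 1.

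Abcg2, at chr6:58584523-58695676 on the plus strand, encodes the transporter ABCG2 (breast cancer resistance protein), which exports the dye Hoechst and so defines the side population in flow cytometry. RefSeq lists 3 start sites on GRCm38.p6, and the window from 250 bases before to 50 after each is shown because the gene differs between the clones and the counts do not say which start was used. Capitals mark matches on either strand, and adjacent matches run together. The GC box was searched as GGGCGG. The CCAAT box was searched by the letters of its name. The TATA box was searched with the letters TATAAA. The core of the xenobiotic response element was searched as GCGTG, and none of these motifs contains another.
Abcg2, chr6:58584283-58584582, plus strand: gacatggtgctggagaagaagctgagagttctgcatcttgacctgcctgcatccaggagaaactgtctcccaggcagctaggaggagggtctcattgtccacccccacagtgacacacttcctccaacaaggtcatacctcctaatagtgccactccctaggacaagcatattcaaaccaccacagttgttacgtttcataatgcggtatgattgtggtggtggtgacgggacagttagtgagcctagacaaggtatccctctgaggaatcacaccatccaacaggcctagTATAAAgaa
Abcg2, chr6:58596422-58596721, plus strand: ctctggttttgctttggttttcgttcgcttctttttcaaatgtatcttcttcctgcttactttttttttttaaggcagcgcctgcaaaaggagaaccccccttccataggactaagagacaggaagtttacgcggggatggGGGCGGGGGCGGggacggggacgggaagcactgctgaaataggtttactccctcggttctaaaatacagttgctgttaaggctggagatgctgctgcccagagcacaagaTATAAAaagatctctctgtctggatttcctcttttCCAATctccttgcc
Abcg2, chr6:58640296-58640595, plus strand: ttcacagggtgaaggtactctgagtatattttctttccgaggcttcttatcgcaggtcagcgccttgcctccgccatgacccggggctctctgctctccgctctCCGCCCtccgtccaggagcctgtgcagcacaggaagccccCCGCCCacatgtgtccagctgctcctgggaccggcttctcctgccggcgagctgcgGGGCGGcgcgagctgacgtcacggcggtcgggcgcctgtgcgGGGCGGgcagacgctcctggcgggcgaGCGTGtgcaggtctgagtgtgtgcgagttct
The first window holds 1 TATA box, the second 2 GC boxes, 1 CCAAT box and 1 TATA box, and the third 4 GC boxes and 1 response element core. All GC boxes lie before the start. The TATA match of the first window, at position 42, lies after it. So do the TATA and CCAAT matches of the second, at positions 2 and 37, and the core of the third, at position 20. Of 32851 RefSeq windows of this length, 35.7% hold a GC box, 37.4% a CCAAT box, 13.6% a TATA box and 32.4% the core, so these matches are common and describe the sequence only.

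Abcg2 stood at 83.5 and 82.9 CPM in KO clones, against 7.83 and 18.1 CPM in Mut clones. The KO clones also lay above each of the 10 tumour lines, whose highest was 64.2 CPM, whereas the Mut clones lay within the range of the lines. The log2 change of 2.70 (SE 0.41) had an adjusted p of 0.0067 by edgeR, was 3.41 without Mut clone 2, and had an adjusted p of 0.13 in the fit of all 17 libraries. Among the lines, TL2 1, 2a, 2b and 3 held 25.5, 42.1, 59.0 and 3.02 CPM. TL1 lines ran from 4.33 to 64.2 CPM with a median of 30.7 CPM, and MSC held 34.8, 51.6 and 44.3 CPM. The lowest lines, TL2 3 and TL1 3b, both carry the number 3, and the other lines ran from 25.5 to 64.2 CPM, on both sides of the MSC values. Tumour lines averaged 33.4 ± 20.3 CPM (SD, n = 10) and MSC 43.6 ± 8.43 CPM (SD, n = 3), a log2 change of -0.36 (95% interval -1.83 to 1.11, adjusted p = 0.764).

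Abcb1a and Abcb1b lie next to each other on the plus strand of chromosome 5, at chr5:8660077-8748575 and chr5:8798147-8866315 in GRCm38. RefSeq's start of Abcb1a lies far upstream of that gene model: its window ends at 8567140, while the model starts at 8660077. The Abcb1b window lies at the start of its model. Both windows are shown because the paralogues differ in level in every library and parted in the KO clones, with capitals as for Abcg2.
Abcb1a, chr5:8566841-8567140, plus strand: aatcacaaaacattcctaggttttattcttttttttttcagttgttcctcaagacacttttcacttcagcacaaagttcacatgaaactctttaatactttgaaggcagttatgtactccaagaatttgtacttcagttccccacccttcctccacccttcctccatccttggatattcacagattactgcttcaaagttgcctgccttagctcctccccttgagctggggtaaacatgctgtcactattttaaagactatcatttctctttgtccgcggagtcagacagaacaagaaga
Abcb1b, chr5:8797897-8798196, plus strand: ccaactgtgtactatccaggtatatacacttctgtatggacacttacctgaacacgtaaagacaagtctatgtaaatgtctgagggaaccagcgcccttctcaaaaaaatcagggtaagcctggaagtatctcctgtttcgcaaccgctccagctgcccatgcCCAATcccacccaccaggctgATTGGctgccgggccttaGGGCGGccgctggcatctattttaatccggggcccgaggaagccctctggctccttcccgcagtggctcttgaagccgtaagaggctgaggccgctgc
The Abcb1b window holds 2 CCAAT boxes, 1 on each strand, and 1 GC box 48 bases before the start. None of the 4 motifs occurs in the Abcb1a window. As that window is remote from the Abcb1a model and the counts do not say which start was used, the windows do not compare like promoters. Sequence identity limits how well counts separate the pair. Of the windows of 60 bases, the read length, in an Abcb1a transcript, 15.7% (777) also occurred in another gene, 645 of them in Abcb1b, and how the counting treated such reads was not given.

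Abcb1a had 0 counts in both KO clones, against 1.74 and 2.95 CPM in Mut clones, 61 counts in all. With 3 counts over the KO group as the limit, Abcb1a was at least 19.5-fold lower in KO clones (adjusted p = 0.00859, edgeR). The call was lost without Mut clone 1 (adjusted p = 0.057) and without Mut clone 2 (adjusted p = 0.0933), and held in the fit of all 17 libraries. None of the lines or MSC was without counts. Lines TL2 1, 2a, 2b and 3 held 1.18, 2.27, 1.12 and 4.57 CPM. TL1 lines ran from 1.13 to 7.02 CPM with a median of 3.15 CPM, and MSC held 0.837, 0.969 and 0.835 CPM. Each of the 10 tumour lines was above each MSC sample, as the only member whose libraries did not overlap, where 12.6% of all tested genes had no overlap. That separation rests on few counts, 10, 12 and 11 in MSC 1, 2 and 3. The lowest lines, TL1 2b, TL2 2b and TL2 1, had 15, 16 and 18 counts. The log2 change of 1.74 (95% interval 0.30 to 3.17) had an adjusted p of 0.118. A transcript on the opposite strand, Gm42686, overlaps 10.1% of the exon bases of Abcb1a, and without a stated strand setting its reads cannot be told apart.

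Abcb1b, the more abundant paralogue, stood at 29.4 and 19.6 CPM in KO clones, against 44.3 and 78.7 CPM in Mut clones. The genotypes did not overlap, and the log2 change was -1.31 (SE 0.356, adjusted p = 0.0386, edgeR), a 2.48-fold lower level. The call was lost without Mut clone 2 (log2 change -0.85, adjusted p = 0.18), without KO clone 1 (adjusted p = 0.0774) and without KO clone 2 (adjusted p = 0.192), and in the fit of all 17 libraries (adjusted p = 0.0581). With both paralogues' counts summed, KO clones were lower by a log2 change of -1.36 (SE 0.356, adjusted p = 0.0344). TL2 1, 2a, 2b and 3 held 53.4, 32.1, 22.5 and 50.4 CPM. TL1 lines ran from 31.8 to 48.3 CPM with a median of 36.7 CPM, and MSC held 26.5, 24.9 and 18.8 CPM. All tumour lines but TL2 2b were above every MSC sample, with a log2 change of 0.78 (SE 0.259, adjusted p = 0.0784). Without TL2 2b the change was 0.88 with an adjusted p of 0.0319, and DESeq2 gave 0.74 with an adjusted p of 0.0383.

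**Figure D2:**
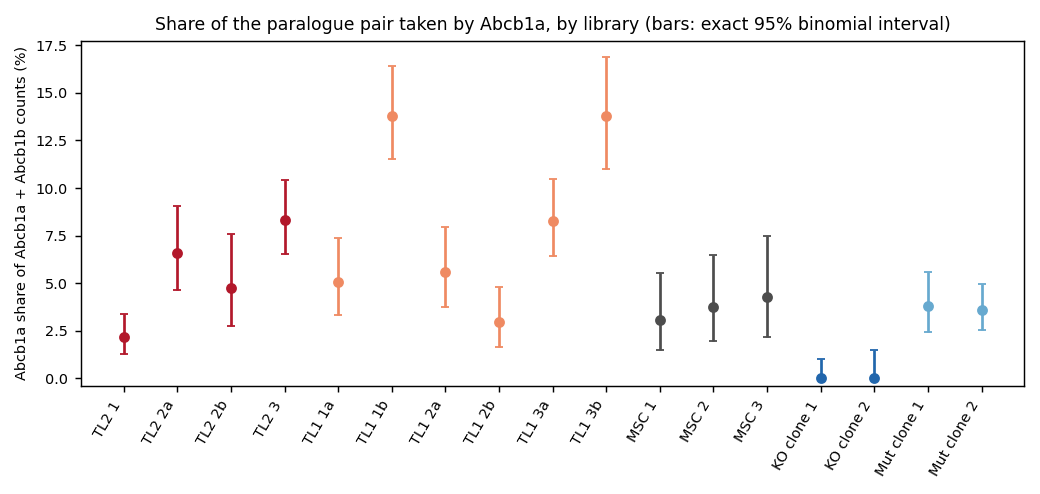
Percentage of the summed Abcb1a and Abcb1b counts that were Abcb1a in each library, with exact (Clopper-Pearson) 95% binomial intervals; libraries run from TL2, TL1 and MSC to KO and Mut clones. The share is 0% in both KO clones, 3.61% and 3.78% in Mut clones and highest, at 13.8%, in TL1 1b and TL1 3b.

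The share of Abcb1a in the counts of the pair also varied among the lines. It was 0% in both KO clones, with upper limits of the exact 95% interval of 0.984% and 1.49%, against 3.78% (2.44 to 5.57%) and 3.61% (2.55 to 4.94%) in Mut clones. In TL2 it ran from 2.17% in TL2 1 to 8.3% in TL2 3, in TL1 from 2.95% in TL1 2b to 13.8% (11.5 to 16.4%) in TL1 1b, and in MSC from 3.06 to 4.26%. The intervals of the KO clones did not reach those of the Mut clones. The lines sharing the number 3 all had shares of 8.28% or more.

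Abcc1, at chr16:14361558-14475737 on the plus strand, encodes MRP1, which exports glutathione conjugates and many drugs. It had the highest level per length of the 4 pumps in every group, at 19.2 RPKM (CPM divided by exon length in kilobases) in KO clones, 15.9 RPKM in Mut clones, 17.7 RPKM in TL2, 16.7 RPKM in TL1 and 12.7 RPKM in MSC. KO clones stood at 293 and 289 CPM, against 271 and 210 CPM in Mut clones. They did not overlap, but the log2 change of 0.29 (95% interval -0.23 to 0.81) had an adjusted p of 0.353. TL2 1, 2a, 2b and 3 held 140, 337, 308 and 283 CPM, TL1 ran from 197 to 364 CPM with a median of 241 CPM, and MSC held 201, 223 and 151 CPM. TL2 1 was below every MSC sample and 7 lines were above them all, with a log2 change of 0.47 (95% interval -0.09 to 1.03, adjusted p = 0.27).

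Bmi1, at chr2:18677018-18686629 on the plus strand, encodes a RING finger subunit of Polycomb repressive complex 1, which ubiquitinates histone H2A. KO clones held 80.1 and 88.0 CPM, against 51.7 and 64.0 CPM in Mut clones. They did not overlap, and the log2 change of 0.56 (95% interval 0.03 to 1.09) had an adjusted p of 0.111. TL2 1, 2a, 2b and 3 held 84.7, 96.9, 65.6 and 31.7 CPM, TL1 ran from 48.5 to 107 CPM with a median of 55.1 CPM, and MSC held 101, 87.3 and 115 CPM. Of the tumour lines, 8 were below every MSC sample, and those within the MSC range, TL2 2a and TL1 2b, both carry the number 2. The log2 change was -0.53 (95% interval -1.19 to 0.13, adjusted p = 0.292). Of the windows of 60 bases in a Bmi1 transcript, 15.1% also occurred in Gm5946, so part of its count is uncertain.

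Aldh3a1, at chr11:61207537-61218421 on the plus strand, encodes an aldehyde dehydrogenase that oxidises aromatic and medium-chain aldehydes and is abundant in the cornea. It was low in the clones, with 5.12 and 2.07 CPM in KO clones, against 4.49 and 0.716 CPM in Mut clones. These overlapped, and the log2 change of 0.47 (95% interval -1.72 to 2.66, adjusted p = 0.731) changed sign to -0.33 without KO clone 1 and to -0.32 without Mut clone 2. TL2 1, 2a, 2b and 3 held 2.5, 62.8, 33.6 and 1.93 CPM, TL1 ran from 2.53 to 85.9 CPM with a median of 18.2 CPM, and MSC held 0.920, 1.45 and 11.5 CPM. The highest line was 44.5 times the lowest, and 6 of 10 lines were above every MSC sample. The log2 change of 2.48 (95% interval -0.37 to 5.34) had an adjusted p of 0.25, and was 4.46 without MSC 3.

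Nes, at chr3:87971078-87980451 on the plus strand, encodes nestin, an intermediate filament protein of neural and muscle progenitors that is also found in bone marrow stroma. The RefSeq window around its start is shown as the gene with the highest level per length in KO clones, with capitals as for Abcg2.
Nes, chr3:87970843-87971142, plus strand: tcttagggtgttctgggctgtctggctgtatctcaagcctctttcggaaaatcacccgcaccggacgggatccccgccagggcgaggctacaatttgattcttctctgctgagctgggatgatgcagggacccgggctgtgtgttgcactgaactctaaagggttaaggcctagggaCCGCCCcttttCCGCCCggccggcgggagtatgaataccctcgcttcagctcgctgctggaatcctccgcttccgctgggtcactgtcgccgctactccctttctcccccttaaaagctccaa
It holds 2 GC boxes on the minus strand, 73 and 62 bases before the start.

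Nes stood at 852 and 789 CPM in KO clones, against 86.8 and 68.5 CPM in Mut clones. The genotypes did not overlap, and the means of 820 ± 44 and 77.6 ± 13 CPM (SD, n = 2 each) differed by a log2 change of 3.42 (SE 0.236, adjusted p = 0.00028, edgeR), with an adjusted p of 0.0771 in the fit of all 17 libraries. The KO clones lay above 8 of the 10 tumour lines, and no line lay below both Mut clones. Lines TL2 1, 2a, 2b and 3 held 377, 286, 298 and 78.1 CPM, TL1 ran from 112 to 1110 CPM with a median of 429 CPM, and MSC held 52.5, 155 and 11.7 CPM. Of the tumour lines, 8 were above every MSC sample, with TL2 3 and TL1 3b within the MSC range. The log2 change of 2.40 (SE 0.85, 95% interval 0.56 to 4.24) had an adjusted p of 0.0963. It passed with DESeq2 (log2 change 2.36, adjusted p = 0.0069) and in the replicate block fit by number (2.63, adjusted p = 0.0367), but not with the tumour libraries summed per number (2.48, adjusted p = 0.12), and was 3.58 without MSC 2. The block treats MSC and tumour lines of a number as paired, which the pairing check described below did not show.

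**Figure D3:**
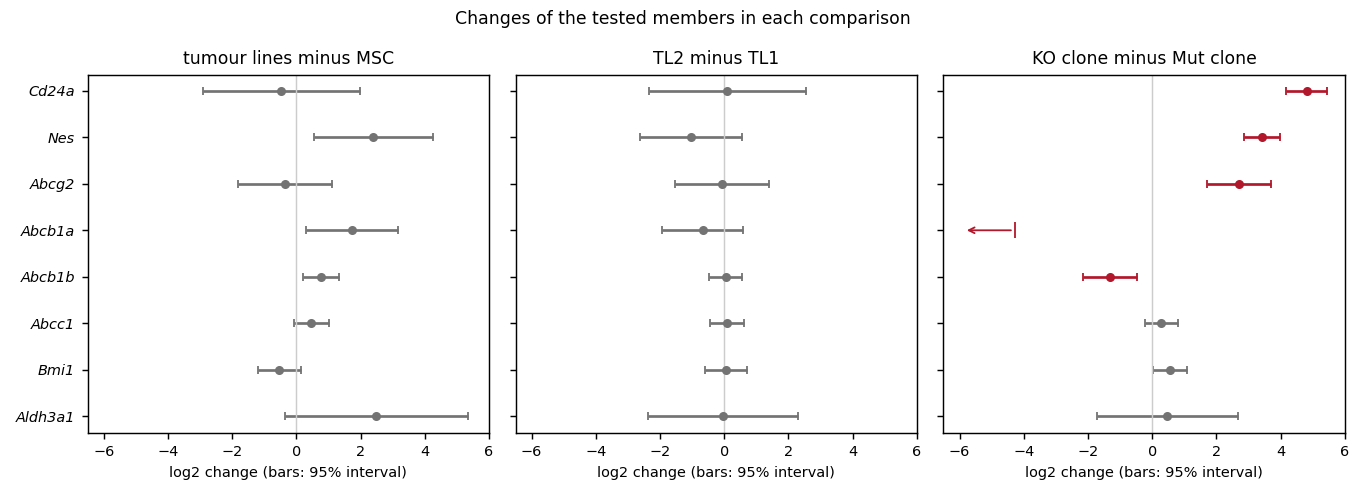
Log2 change of each tested gene in the 3 comparisons with its 95% interval, positive where tumour lines, TL2 or KO clones were higher; red marks an adjusted p under 0.05. The arrow for Abcb1a in the clones starts at the bound set by 3 counts over the KO group, at least 19.5-fold lower, and every called gene is in the comparison of KO with Mut clones.

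Between the generations, the largest difference of a member was that of Nes, at 260 ± 128 CPM in TL2 (SD, n = 4) and 536 ± 388 CPM in TL1 (SD, n = 6), a log2 change of -1.04 (95% interval -2.61 to 0.54). Abcb1a followed with -0.67 (95% interval -1.93 to 0.58), at 2.28 ± 1.61 CPM in TL2 and 3.65 ± 2.37 CPM in TL1. The other 6 changes lay between -0.06 and 0.10. Their intervals were narrow for the steadier genes, from -0.48 to 0.56 for Abcb1b, -0.44 to 0.62 for Abcc1 and -0.61 to 0.72 for Bmi1. They were wide for Cd24a, from -2.35 to 2.55, for Aldh3a1, from -2.39 to 2.30, and for Abcg2, from -1.53 to 1.40. Sizeable differences between the generations were thus not detectable for these in this fit, which leaves out the pairing of TL1 and TL2 by number. With the number as a replicate block the change of Cd24a was -0.66, and no member was called.

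Levels were also set side by side by the number in the label. Set against the MSC sample of the same number, the mean log2 CPM of tumour lines differed for Cd24a by -5.97 at number 1, 0.87 at number 2 and -0.55 at number 3. For Abcg2 the differences were -0.07, -0.14 and -2.58, and for Bmi1 -0.72, 0 and -1.34. Nes was higher in tumour lines within each number, by 3.35, 1.26 and 3.78, as were Abcb1a, by 1.46, 0.59 and 2.34, Abcb1b, by 0.73, 0.29 and 1.23, and Abcc1, by 0.22, 0.34 and 0.56. For Aldh3a1 the values were 2.99, 4.23 and -0.69. Each of these values rests on a single MSC library. The pairing check described below did not tie MSC to tumour lines by number. Pairing was thus neither shown nor excluded, and these are not treated as matched pairs. With the number as a block, which fits these values together, Nes had an adjusted p of 0.0367 and Abcb1b of 0.0556 by edgeR. With the tumour libraries summed per number, Nes had an adjusted p of 0.12. A test of the number among the 10 tumour lines, chosen after the values were seen, called 0 members by edgeR, beside 1.79% of 12611 genes. The unadjusted p was under 0.05 for 3 members, Cd24a (0.00602), Bmi1 (0.038) and Abcg2 (0.0423). The share of all genes under that unadjusted threshold was not counted, and the 1.79% covers adjusted calls only, so nothing is read from these 3. The adjusted p was 0.0913 for Cd24a, 0.194 for Bmi1 and 0.203 for Abcg2.

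**Figure D4:**
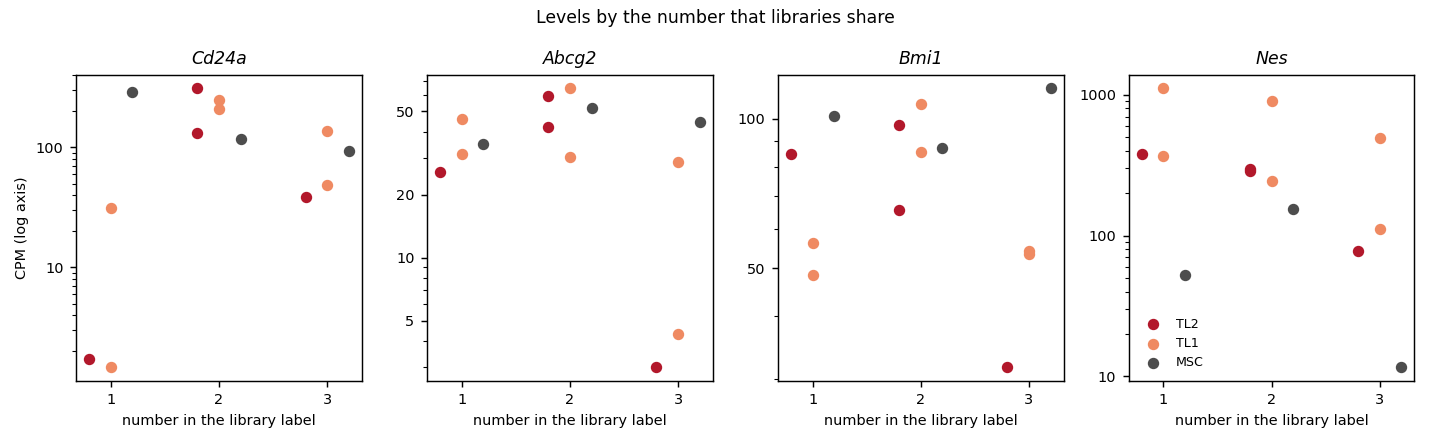
Levels of Cd24a, Abcg2, Bmi1 and Nes in CPM (log axis) in TL2, TL1 and MSC libraries, by the number in the label. Tumour lines with the number 1 hold the lowest Cd24a values, down to 1.49 CPM, and TL2 3 and TL1 3b the lowest Abcg2 values, 3.02 and 4.33 CPM, while TL1 3a lies at 28.5 CPM.

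Levels of different genes are set side by side in RPKM, per joined length of all annotated exons of a gene. For Abcc1 that length was 15092 bases, while its longest coding transcript had 6792. For Bmi1 the lengths were 3974 and 3594 bases. The order of the genes, above all of Abcc1 and Bmi1, therefore depends on the length chosen. In KO clones the order was Nes at 128 ± 7.07 RPKM, Cd24a at 66.9 ± 4.10 RPKM, Bmi1 at 21.1 ± 1.34 RPKM, Abcc1 at 19.2 ± 0.212 RPKM and Abcg2 at 10.2 RPKM (SD, n = 2), with Abcb1b and Aldh3a1 at 3.07 and 1.85 RPKM. Bmi1 and Abcc1 were close to each other there by the joined exon length, which for Abcc1 far exceeds its transcript. In Mut clones Abcc1, Bmi1 and Nes, at 15.9 ± 2.90, 14.6 ± 2.19 and 12.1 ± 1.98 RPKM (SD, n = 2), came first, where Bmi1 overlapped with both others and Abcc1 and Nes did not overlap, and Abcb1b, Cd24a and Abcg2 followed at 7.70, 2.41 and 1.59 RPKM. In TL2 Cd24a and Nes led with 46.8 ± 53.3 and 40.5 ± 19.9 RPKM (SD, n = 4) and in TL1 Nes and Cd24a with 83.7 ± 60.6 and 43.6 ± 39.3 RPKM (SD, n = 6), in each case with overlapping ranges. In MSC Cd24a at 64.2 ± 40.8 RPKM and Bmi1 at 25.4 ± 3.45 RPKM were followed by Abcc1 and Nes at 12.7 ± 2.46 and 11.4 ± 11.5 RPKM (SD, n = 3). Abcb1a averaged at most 0.666 RPKM in any group and was the lowest member with more than single counts.

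Related genes were set beside the members from lists of the same pathways. Over all tested genes, 26.1% were called in the clones, 14.2% higher and 12% lower in KO clones, and 8.65% in tumour lines against MSC, with median log2 changes of 0 and 0.10. Of 14 other drug efflux genes, 7 were tested in the clones: Abcc5, an exporter of cyclic nucleotides, was higher in KO clones at 105 CPM, against 41.3 CPM in Mut clones (log2 change 1.36, adjusted p = 0.00728, edgeR). There, 3 were lower, Abcc4, a pump for cyclic nucleotides and prostaglandins, at 12.7 CPM in KO clones, against 49.7 CPM in Mut clones, and the lipid transporters Abca3 and Abca2, with log2 changes of -1.94, -2.65 and -0.86. The median log2 change of the list was -0.13, beside 0 for all genes tested. In tumour lines against MSC none of its 8 tested genes was called by edgeR, and the nearest, Abca2, stood at 26.9 CPM in tumour lines and 14.1 CPM in MSC (adjusted p = 0.085).

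Of 18 other aldehyde dehydrogenases, 1 of 11 tested was higher in KO clones, Aldh3b1 (log2 change 2.48, adjusted p = 0.0272), and 4 were lower. The lower ones included the mitochondrial folate enzyme Aldh1l2, at 41.3 CPM in KO clones, against 252 CPM in Mut clones, the proline-synthesis enzyme Aldh18a1 (-1.20) and Aldh9a1 (-1.26). In tumour lines against MSC, 1 of 14 was higher, the mitochondrial Aldh2 (0.94, adjusted p = 0.0142). There, 2 were lower, the retinal dehydrogenases Aldh1a2, at 0.0892 CPM in tumour lines and 88.0 CPM in MSC (adjusted p = 0.000191), and Aldh1a1, at 0.392 CPM in tumour lines and 2.83 CPM in MSC (adjusted p = 0.0207). MSC values were uneven, from 6.69 to 230 CPM for Aldh1a2 and from 0.753 to 6.45 CPM for Aldh1a1. Aldh1a1 overlapped with the tumour lines, which reached 0.826 CPM. The list medians were -0.45 in the clones and -0.11 in tumour lines, beside 0 and 0.10 for all genes.

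Of 20 other stem cell surface and RNA-binding markers, 15 were tested in the clones, 4 higher in KO clones and 2 lower, beside 14.2% and 12% of all genes. The higher ones included Dclk1, a tuft cell kinase, at 218 CPM in KO clones, against 16.4 CPM in Mut clones (log2 change 3.75, adjusted p = 0.000598), integrin beta 1 (Itgb1, 1.33) and the RNA-binding protein Msi2 (1.36), and the protein C receptor Procr was lower (-2.12). In tumour lines against MSC, 0 of 18 were higher and 3 were lower. These were the R-spondin receptor Lgr5, at 0.797 CPM in tumour lines and 64.7 CPM in MSC, Thy1, at 0.713 CPM in tumour lines and 44.7 CPM in MSC, and the receptor Kit, with 1 count over all tumour lines and 112 counts in MSC (adjusted p = 0.00107, 0.00171 and 0.00184, edgeR). Thy1 was uneven among MSC, from 5.09 to 112 CPM. The list medians were -0.36 in the clones and 0.43 in tumour lines, beside 0 and 0.10 for all genes.

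Of 16 Polycomb repressive complex 1 genes and targets beside Bmi1, all were tested. In KO clones 1 was higher, the polyhomeotic subunit Phc1 (log2 change 1.62, adjusted p = 0.00429), and 4 were lower, among them Pcgf6 (-1.14), the chromobox protein Cbx7 (-1.51) and Cdkn2a, the locus that BMI1 represses, at 218 CPM in KO clones, against 466 CPM in Mut clones (-1.08, adjusted p = 0.0177). In tumour lines 2 were higher than in MSC, Cbx7, at 22.6 CPM in tumour lines and 4.41 CPM in MSC (2.39, adjusted p = 0.00686), and Phc2 (1.00, adjusted p = 0.0298), and 0 were lower. The list medians were -0.36 in the clones and 0.12 in tumour lines, beside 0 and 0.10 for all genes.

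The aryl hydrocarbon receptor is a ligand-activated factor that induces Aldh3a1 and other detoxifying genes. Of 11 genes of this battery and of xenobiotic receptors, 6 were tested in the clones, where Cyp1b1 was higher in KO clones at 72.4 CPM, against 24.0 CPM in Mut clones (log2 change 1.61), and Tiparp lower (-1.27). In tumour lines against MSC, 2 of 7 were higher, the quinone reductase Nqo1 (2.31, adjusted p = 0.0233) and Tiparp (0.88, adjusted p = 0.0314). There Cyp1b1 was lower, at 25.9 CPM in tumour lines and 569 CPM in MSC (-4.63, adjusted p = 0.0309). The list medians were 0.03 in the clones and 0.22 in tumour lines, beside 0 and 0.10 for all genes.

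Of 10 intermediate filament genes that accompany Nes in progenitors, muscle and neurons, 6 were tested in the clones. The higher ones in KO clones were the muscle filament desmin (Des), at 812 CPM in KO clones, against 0.333 CPM in Mut clones (adjusted p = 0.00207), and its partner syncoilin (Sync), at 47.9 CPM in KO clones, against 2.13 CPM in Mut clones (log2 change 4.50, adjusted p = 0.000531). Nefl, the light neurofilament chain, was lower, at 0.315 CPM in KO clones and 7.90 CPM in Mut clones (adjusted p = 0.0243). In tumour lines against MSC, peripherin (Prph) was higher (3.16, adjusted p = 0.0314) and synemin (Synm) lower (-2.73, adjusted p = 0.00332) among 7 tested. The list medians were -0.04 in the clones and 2.20 in tumour lines, beside 0 and 0.10 for all genes. Between TL2 and TL1 no gene of the 6 related lists was called by edgeR.

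**Figure D5:**
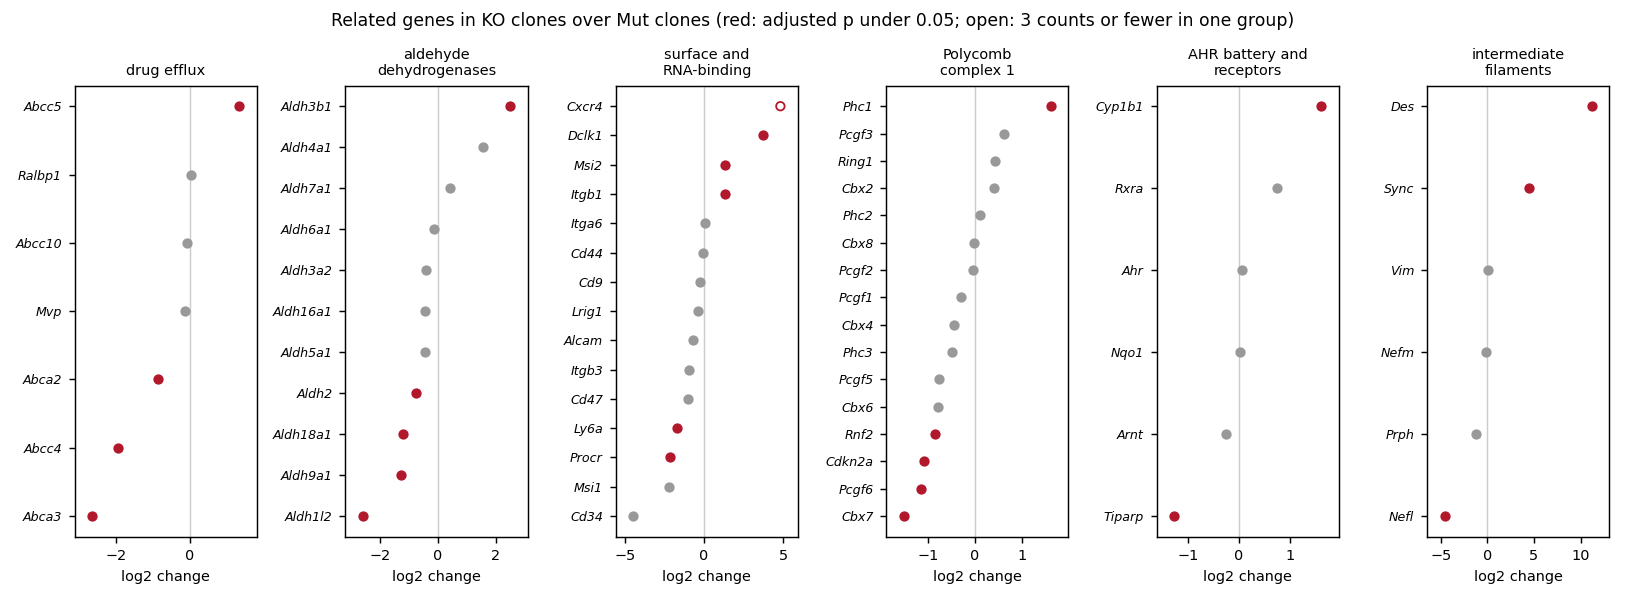
Log2 change, KO over Mut clones, of the tested genes of 6 related lists; red marks an adjusted p under 0.05, and an open point a gene with 3 counts or fewer in one genotype, whose fitted change is no measure of size. Called genes lie on both sides of 0 in every list, with Dclk1 at 3.75, Sync at 4.50 and Nefl at -4.59.

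Genes whose log2 CPM closely followed that of a member over the 17 libraries, by Pearson's r among 12328 named genes that passed the filter, are given as a description, since the libraries share groups and lines. Close to Nes were Mfap3l (0.942), integrin alpha 7 (Itga7, 0.94) and muscle enolase (Eno3, 0.938), and close to Abcg2 were Ppp3r1 (0.937) and Pard6g (0.927). For Cd24a they were Ephb3 (0.92), Hdac7 (0.912) and Tsc22d4 (0.87), and for Abcb1a Sema6b (0.915), Zbtb44 (0.897) and Thoc2 (0.895). Bmi1 was followed by C1d (0.903), Atn1 (0.892) and Exoc8 (0.885), and Abcb1b by Cpsf1 (0.87), Dpys (0.868) and Vma21 (0.86). Abcc1 and Aldh3a1 had looser companions, Lrrc20 (0.802) and Tbc1d1 (0.788) for Abcc1, and Casp12 (0.838), Ppp2r2b (0.814) and Il2rb (0.804) for Aldh3a1.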

How the data were processed

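RNA was measured in 17 libraries. The authors deposited raw counts, as whole numbers by gene symbol. The submitters' processing notes name build mm10 and, as tools, HTSeq 0.6.1p1, TopHat2 2.0.10, DESeq2 1.6.3 and cutadapt. Order, settings, annotation and strand were not given in the sources used here, so reads of overlapping opposite-strand genes cannot be told apart. In the table, 4 columns match no sample and were not used. Groups were taken from the titles. Nothing in the labels ties the libraries to separate animals or cultures, so p-values measure only how these libraries spread, possibly for technical reasons. A chi-square of counts found no pair of libraries in a group that agreed within sampling noise.

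CPM used TMM-scaled library sizes (trimmed mean of M values), and RPKM the joined length of all annotated exons in GENCODE M21 on GRCm38. Counts were tested with edgeR 4.0.16 (quasi-likelihood, robust, filtered by expression) in R 4.3.3, with Benjamini-Hochberg adjustment over all tested genes, at an adjusted p under 0.05; MSC, TL1 and TL2 were fitted together, with the mean of TL1 and TL2 set against MSC, and the clones alone. SE was derived from the F statistic, and intervals use its degrees of freedom. The test was checked on simulated counts. Alternatives were DESeq2 1.42.0, other scalings, no filter, all libraries in 1 fit, summed paralogues, each library left out and a replicate block.

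The number in the labels was checked for pairing. Deviations from group means correlated within a number at r = 0.461, 0.376 and 0.51 between TL1 and TL2, which were taken as paired. Within a number r was 0.0164, 0.0411 and 0.167 between MSC and TL1. Between MSC and TL2 it was 0.225, -0.0319 and 0.193, and MSC were not taken as paired. Across different numbers r ran from -0.391 to 0.0176 for TL1 and TL2. For MSC it ran from -0.101 to 0.0699 with TL1 and from -0.227 to 0.0284 with TL2. A weak correlation cannot exclude that MSC and tumour lines of a number share an origin, which the labels do not state.

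All 9 members are named. Of each related list up to 4 called genes with the smallest p are named, or up to 2 where none was called, and for each member the 3 genes of highest correlation, of which some are not reported here. Members and lists were chosen with earlier results of these data known. Promoter windows are from RefSeq on GRCm38.p6 and matched 6 of the 9 members; Cd24a, Abcc1 and Aldh3a1 had no entry.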

Additional observations from a re-analysis of the deposited data

Results flagged for a closer look

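Abcg2 in TL1 3b was flagged because it stood apart from the other TL1 lines. It had 4.33 CPM, and the nearest, TL1 3a, had 28.5 CPM, a gap of 0.696 of the whole range of the 6 lines on the log2 scale. TL2 3, which carries the same number, was the lowest TL2 line at 3.02 CPM. Of 16 groups of values tested in this way, 1 was flagged, and chance flags about 1 in 20.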

How the results depend on the processing

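Between tumour lines and MSC, the 1147 called genes became 2208 with DESeq2, 732 with TL1 alone and 546 with TL2 alone. Leaving out single libraries gave 304 (without MSC 3) to 1532 genes, with 349 without MSC 1 and 687 without MSC 2, and 0 to 1 members, Abcb1b without TL2 2b. DESeq2 called 2 members, and the number as a replicate block called 1 member, Nes, and 1686 genes, whereas tumour libraries summed per number gave 0 members and 1170 genes. The pairing check did not tie MSC to tumour lines by number. Between TL2 and TL1, which the number pairs, the replicate block called 0 genes, turned Cd24a to -0.66 and Bmi1 to -0.03, and changed no call. DESeq2 called 3 genes there; Abcb1b turned to -0.02 with library totals alone and to -0.01 with the paralogues summed. No paired analysis was possible for the clones because their labels carry no number.

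In the clones, 3200 called genes became 820, and 5 members became 1 (Abcb1a), with all 17 libraries in 1 fit, whose spread includes that of the lines. Leaving out 1 clone, which leaves a genotype with a single library assumed to vary like the other, gave 1347 to 1755 genes (1755 and 1347 without Mut clones 1 and 2, 1648 and 1375 without KO clones 1 and 2) and 3 to 4 members, 3 without Mut clone 2. With library totals in place of TMM the median of all genes moved to -0.13, and 1472 genes were higher and 1816 lower in KO clones, beside 1734 and 1466 with TMM; for tumour lines the split was 680 and 547, beside 512 and 635. Without a filter, 374 were higher and 699 lower in tumour lines.

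Signs that turned on leaving out a library were those of changes not called. They are given as ranges: Cd24a in tumour lines against MSC -1 to 0.18; in TL2 against TL1 Cd24a -0.96 to 0.51, Abcg2 -0.52 to 0.3, Abcb1b -0.15 to 0.23, Abcc1 -0.04 to 0.3, Bmi1 -0.14 to 0.28 and Aldh3a1 -1.03 to 0.82; and in the clones Aldh3a1 -0.33 to 2.33. The causes were not tested. At this depth Prom1 had too few counts for a test.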
